A study of Mus musculus with 12 samples.

Results

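Kit, Flt3, Csf1r, Csf3r, Epor, Il6st, Il6ra, Ifngr1 and Ifngr2 encode receptors, or chains of receptors, by which growth factors and cytokines act on blood cells. These 9 of 18194 named genes were taken by symbol: they are represented by the 17 probe sets to which the array annotation gives exactly 1 gene symbol equal to one of them, out of 45101 probe sets on the array and 34958 with a single symbol. No probe set that carries several symbols includes any of the 9. A probe set is a group of short probes for 1 transcript. Its MAS5 signal is a brightness on a linear scale that has no fixed relation to the signal of another probe set. Differences were therefore taken between arrays. Signals of different probe sets were set together only to keep the brightest of a gene, to filter low signal, to average or sum, and as rough descriptions of level. All 9 genes passed the filter on low signal through their brightest probe set, on which the values rest unless another is named.

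RNA from mouse blood cells was hybridised to 12 one-colour Affymetrix arrays. There were 3 for each pairing of genotype (control or Stat5 knockout) and label (minus or plus, written as without or with CMP). The knockouts lack the Stat5a and Stat5b genes in blood cells and the controls have them. The labels give no strain, age, sorted population, promoter of a deleting enzyme or number of animals. The p-values then reflect nothing beyond the spread between these samples, and that spread may be technical. CMP is named in the treatment protocols as what was given, but the letters also stand in most titles beside a plus or minus sign, those of minus arrays included. The labels thus do not settle what CMP is. With CMP and without CMP stand only for arrays labelled plus and minus, and the CMP effect for their difference. The titles take 3 forms, and the arrays of each form, 1 of every group, are referred to as naming set A, B or C. The knockout array without CMP of set B has a protocol that calls it a control and was grouped by its title.

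Receptors for blood cell growth factors fall into structural classes. Kit, Flt3 and Csf1r are receptor tyrosine kinases, which phosphorylate themselves when a ligand brings their chains together, and they mark stem and progenitor cells (Kit, Flt3) or monocytes and macrophages (Csf1r). Epor, Csf3r, the IL-6 receptor chains and the interferon gamma receptor chains have no kinase of their own and signal through bound JAK kinases, which phosphorylate STAT proteins, Stat5 among them for Epor and Csf3r. Interferon gamma is a cytokine of immune defence rather than a growth factor, and its receptor is formed by Ifngr1, which binds the ligand, and Ifngr2, which is needed to signal.

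The deletion showed in the arrays. Signals of Stat5a were 660 to 1436 in controls and 28.9 to 90.1 in knockouts, and those of Stat5b 1036 to 2177 and 7.28 to 82.8. The set B knockout array without CMP, which its protocol calls a control, is counted among these knockouts. Its Stat5a and Stat5b signals were therefore at most 90.1 and 82.8, below every control array. Array medians were 59.7 to 114 at 1 common trimmed mean, and precision is limited by having 3 arrays per group. The beta-actin 3'/5' signal ratio, which rises when RNA is degraded or its copying is incomplete, was 19.7 to 54.8 in set B and 1.19 to 4.40 in sets A and C. It was also higher with CMP in 6 of 6 pairs of arrays, by 0.24 to 1.63 on the log2 scale. The Gapdh 3'/5' ratio was 26.3 to 67.9 in set B, 23.7 and 14.8 in the set A control and knockout with CMP and 2.15 to 5.24 in the other arrays, and it was higher with CMP in 5 of 6 pairs. The myeloperoxidase gene Mpo, a marker of myeloid progenitors, had signals of 15537 to 56983. Of 7 B cell markers on the array 2 passed the filter on low signal, and the sum of the 7 was 508 to 1654, with Cd79b at 169 to 1083. Of 7 T cell markers 1 passed, and their sum was 112 to 384.

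With CMP in controls, Ifngr1 fell and Il6ra rose, and these were the only 2 of the 9 receptor genes called in any of the 5 comparisons. Calls are genes with an adjusted p under 0.05 in limma's fit with Benjamini-Hochberg adjustment over 10583 genes. In that comparison 22.1% of all genes tested were called (10.6% higher and 11.6% lower), so 2 of 9 (22.2%) is near the share among genes at large. In knockouts none of the 9 was called with CMP, against 18.8% of all genes (9.03% higher and 9.72% lower). Between knockouts and controls none was called without CMP or with CMP, where 0.0189% of genes were called in each case. The interaction, which asks whether the CMP effect differs between genotypes, gave no call among the 9 or among all genes (0%). Without CMP the adjusted p of a knockout difference was 0.999985 for each of the 9 genes, and it is not repeated below.

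The weaker measures placed the 9 genes as follows. An unadjusted p under 0.05 was reached with CMP by 4 of them in controls (Flt3, Epor, Il6ra and Ifngr1, against 36.4% of all genes) and by 2 in knockouts (Epor and Ifngr1, against 33.9%). It was reached by 2 in knockouts without CMP (Csf1r and Il6ra, against 2.36%), by 3 in knockouts with CMP (Flt3, Csf1r and Il6st, against 9.81%) and by none in the interaction (2.11%). The same direction in all 3 naming sets was found with CMP for 6 of 9 in controls (57.7% of all genes) and for 3 in knockouts (53.8%). It was found for 5 in knockouts without CMP (31.2%), for 4 in knockouts with CMP (34.9%) and for 3 in the interaction (27.6%). Groups without overlap were found for Ifngr1 with CMP in controls (25.1% of all genes) and for Epor with CMP in knockouts (23.6%). Between genotypes they were found for Epor without CMP (4.32%) and for none of the 9 with CMP (5.66%). The median log2 change of the 9 was -0.10 with CMP in controls (all genes -0.02), 0.16 with CMP in knockouts (-0.06), 0.21 for knockouts without CMP (-0.01) and 0.22 for knockouts with CMP (-0.04).

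**Figure D1:**
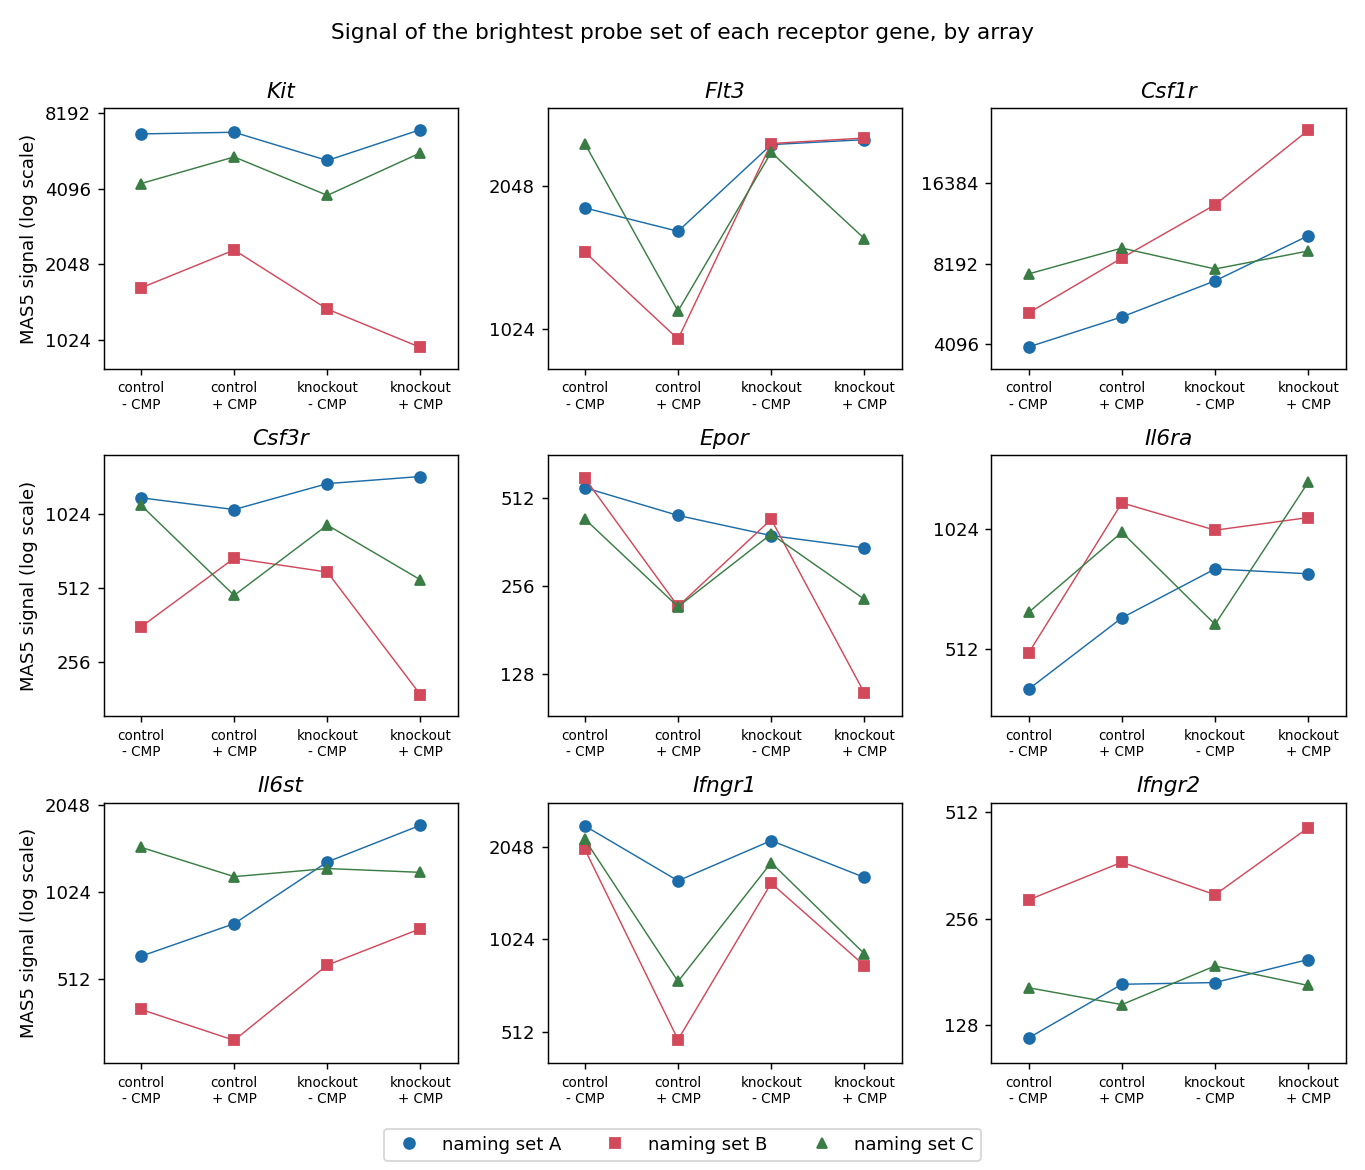
MAS5 signal of the brightest probe set of each receptor gene (log axis, range differing between panels) in the 4 groups. Each point is 1 array, and lines join the arrays of 1 naming set and are no time course; Ifngr1 is the panel in which all 3 controls with CMP lie below all 3 controls without CMP.

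Ifngr1, the chain that binds interferon gamma, had signals of 2398, 2011 and 2166 in controls without CMP (sets A, B and C) and 1588, 482 and 746 in controls with CMP. In knockouts it had 2147, 1560 and 1820 without CMP and 1629, 840 and 919 with CMP. All controls with CMP lay below all controls without CMP, while the knockout groups overlapped through the set A array with CMP. The group means ran from controls without CMP (11.11 ± 0.13 on the log2 scale, SD, n = 3) through knockouts without CMP (10.86 ± 0.23) and knockouts with CMP (10.12 ± 0.50) to controls with CMP (9.76 ± 0.84), and the groups next to each other in that order overlapped. Ifngr1 fell with CMP in controls by 1.36 ± 0.25 on the log2(signal + 32) scale (SE, adjusted p = 0.00312, limma), or 2.56-fold, and it was lower in 3 of 3 sets, by -0.58, -1.99 and -1.50. In knockouts the difference was -0.74 ± 0.25 (adjusted p = 0.0567), with -0.39, -0.87 and -0.96 in the sets, and it passed when the set A or set B control with CMP was left out (adjusted p = 0.0332 and 0.0313). In bulk RNA, fewer cells of a type and less RNA per cell cannot be told apart.

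The difference of Ifngr1 between the genotypes' CMP effects was 0.62 ± 0.35 (adjusted p = 0.954, interaction), with a 95% interval of -0.15 to 1.38. Without CMP its knockout minus control difference was -0.25 ± 0.25 and with CMP 0.36 ± 0.25, and neither was called (with CMP adjusted p = 0.551). The fall in controls was -1.04 without set B (adjusted p = 0.014), and -1.81 when the beta-actin ratio was a covariate (adjusted p = 0.00683). It missed the threshold without set C (-1.29, adjusted p = 0.0734) and when the naming set was left out of the fit (-1.36, adjusted p = 0.0705). The 3 genes whose pattern over the 12 arrays was most like Ifngr1, after each set's mean was taken off, were Macrod1 (Pearson r 0.99), Poli (0.98) and Mri1 (0.98). They are given as a description; the arrays share groups.

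Ifngr2, the chain that interferon gamma needs to signal, had low signals of 118, 289 and 163 in controls without CMP and 167, 370 and 146 in controls with CMP. Knockouts had 169, 299 and 188 without CMP and 196, 463 and 166 with CMP. The set B array was the brightest in every group, and all groups overlapped. Its differences were 0.20 ± 0.23 with CMP in both genotypes and 0.21 ± 0.23 and 0.22 ± 0.23 between genotypes without and with CMP, with adjusted p of 0.573 and 0.574 for CMP and 0.69 for knockouts with CMP. A weaker probe set of Ifngr2, at 9.58 to 146, lay below the level filter.

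The promoter of Ifngr1 is printed because it is the receptor gene with the largest called change. It is the 250 bases before the RefSeq transcription start (build GRCm38.p6, chr10:19591699-19591948, plus strand), 5' to 3', with capitals for the GC-box letters GGGCGG on the reverse strand (CCGCCC), which lie 99 and 88 bases before the start.
Ifngr1: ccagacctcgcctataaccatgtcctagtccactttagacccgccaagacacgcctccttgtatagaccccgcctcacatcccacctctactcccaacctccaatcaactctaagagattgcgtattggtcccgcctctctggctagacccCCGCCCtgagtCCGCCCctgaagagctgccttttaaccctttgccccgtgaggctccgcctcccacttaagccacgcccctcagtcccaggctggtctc
The STAT-type letters TTCNNNGAA, searched on both strands, were in none of the 8 receptor genes whose promoters RefSeq's table holds and in 7.02% of 32851 promoter windows of the same length. GGGCGG was in 5 of the 8 (Epor, Ifngr1, Ifngr2, Il6st and Kit) and in 32.7% of all windows. A match is a description of letters only.

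Genes that interferon gamma is known to induce moved both ways with CMP. Of 19 tested, 2 rose and 4 fell in controls and 1 rose and 3 fell in knockouts. The list medians were 0.05 and -0.01 (all genes -0.02 and -0.06). Among all genes tested, 10.6% rose and 11.6% fell with CMP in controls, and 9.03% rose and 9.72% fell in knockouts. The CMP counts of every list below are to be read against these shares. The immunoproteasome subunits Psmb8 and Psmb9, which cut proteins for antigen presentation, fell in both genotypes, with changes of -1.42 ± 0.18 and -1.49 ± 0.19 in controls (adjusted p = 0.000474 and 0.000516) and -1.37 ± 0.18 and -1.37 ± 0.19 in knockouts. Icam1, an adhesion molecule that other stimuli also induce, rose by 1.88 ± 0.23 and 1.77 ± 0.23 in controls and knockouts, and Cd274, the checkpoint ligand PD-L1, by 1.27 ± 0.34 in controls (adjusted p = 0.0195). None of the 19 was called in a comparison of genotypes.

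Il6ra, the chain that binds IL-6, had signals of 406, 501 and 634 in controls without CMP and 614, 1195 and 1007 in controls with CMP. Knockouts had 815, 1020 and 591 without CMP and 792, 1097 and 1346 with CMP. Each set's control was brighter with CMP, but the set A array with CMP lay below the set C array without it, so the groups overlapped. The order of the group means was controls without CMP (9.07 ± 0.30 on the log2 scale, SD, n = 3), knockouts without CMP (9.68 ± 0.38), controls with CMP (9.87 ± 0.48) and knockouts with CMP (10.09 ± 0.37), and neighbours overlapped. Il6ra rose with CMP in controls by 0.80 ± 0.26 (SE, adjusted p = 0.0456, limma), or 1.74-fold, with 0.56, 1.20 and 0.64 in the sets.

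This call lay close to the threshold. It held in 11 of 26 other settings, with adjusted p from 0.0268 to 0.54, and over all probe sets in place of genes the adjusted p was 0.0517. Without set B the change was 0.60 (adjusted p = 0.151), without set A 0.92 (0.118) and without set C 0.88 (0.148). Leaving out a single array ended it for 7 of 12 arrays, namely all 3 controls without CMP (0.80, 0.66 and 0.94 without sets A, B and C), the controls with CMP of sets B and C (0.67 and 0.77), the set B knockout without CMP and the set A knockout with CMP (0.80 in both cases, adjusted p = 0.0512 and 0.0573). When the beta-actin ratio was a covariate it was 1.20 (adjusted p = 0.0432). With CMP in knockouts Il6ra differed by 0.40 ± 0.26 (adjusted p = 0.30), from -0.04 in set A to 1.15 in set C. Knockouts minus controls gave 0.61 ± 0.26 without CMP, with 0.95, 0.98 and -0.10 in the sets, and 0.21 ± 0.26 with CMP (adjusted p = 0.727). The interaction of Il6ra was -0.40 ± 0.37 (adjusted p = 0.954).

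A dimmer Il6ra probe set did not show the same pattern. It had signals of 60.4, 128 and 153 in controls without CMP and 30.1, 191 and 103 in controls with CMP, a difference of -0.18 ± 0.44 (adjusted p = 0.809, limma over 18864 probe sets). Averaged over both probe sets, Il6ra differed by 0.31 in controls (adjusted p = 0.54). The genes whose pattern was most like the bright probe set over 12 arrays were Ppp1r18 (Pearson r 0.96), Pip4p1 (0.95) and Rbm47 (0.94).

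The Il6ra promoter is shown as that of the other called gene (GRCm38.p6, chr3:89913197-89913446, minus strand, from RefSeq, the 250 bases before the start). Capitals mark GATAA, letters bound by GATA factors, on the reverse strand (TTATC), 245 bases before the start.
Il6ra: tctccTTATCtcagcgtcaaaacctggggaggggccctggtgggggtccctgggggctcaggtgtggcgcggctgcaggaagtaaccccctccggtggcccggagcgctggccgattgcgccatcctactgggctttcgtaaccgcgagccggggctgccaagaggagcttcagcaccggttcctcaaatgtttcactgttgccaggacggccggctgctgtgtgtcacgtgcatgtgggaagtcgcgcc
GATAA was in 2 of the 8 receptor promoters, those of Il6ra and Epor, and in 22.6% of all windows.

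Il6st encodes gp130, the signalling chain that receptors of the IL-6 family share. Its signals were 612, 400 and 1462 in controls without CMP and 794, 312 and 1156 in controls with CMP. Knockouts had 1301, 570 and 1234 without CMP and 1745, 763 and 1197 with CMP. Set B was lowest in every group, and CMP moved the controls in no single direction (0.36, -0.33 and -0.33 in the sets). The CMP effect was -0.10 ± 0.29 in controls (adjusted p = 0.841) and 0.26 ± 0.29 in knockouts (adjusted p = 0.572). With CMP, knockouts exceeded controls by 0.79 ± 0.29 (adjusted p = 0.507), with 1.11 and 1.21 in sets A and B and 0.05 in set C. Without CMP the difference was 0.43 ± 0.29, with 1.05, 0.48 and -0.24 in the sets.

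The second probe set of Il6st above the level filter had signals of 241, 388 and 616 in controls without CMP and 810, 1369 and 621 in knockouts without CMP. Here the knockout arrays lay above every control array. Without CMP, groups did not overlap for 4.32% of all genes by their brightest probe set, and this was not counted over all probe sets. For this Il6st probe set the knockout minus control difference was 1.13 ± 0.57 without CMP and 1.13 ± 0.57 with CMP. Neither was called (with CMP adjusted p = 0.546, limma over probe sets). The second of these rested on set B, at 3.31, with 0.12 in set A and -0.06 in set C. The other 2 probe sets of Il6st, at 3.43 to 145, were below the filter.

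Around the IL-6 receptor, 1 of 2 tested partner receptors of gp130 rose. Lifr, the receptor chain for leukemia inhibitory factor, rose with CMP by 1.93 ± 0.37 in controls (adjusted p = 0.00395) and by 2.46 ± 0.37 in knockouts (adjusted p = 0.00129). Of the genes known as targets of IL-6 and Stat3, 6 of 13 rose and 1 fell in controls, and 3 rose and 1 fell in knockouts. The list medians were 0.81 and 0.22 (all genes -0.02 and -0.06). Of all genes, 10.6% rose and 11.6% fell in controls, and 9.03% rose and 9.72% fell in knockouts. The repressor gene Bcl6 rose by 2.05 ± 0.37 and 2.21 ± 0.37, and Myc, a driver of growth, fell by 1.43 ± 0.25 and 1.74 ± 0.25, in controls and knockouts. Of 12 genes of receptor shedding and trafficking none was called in controls and 1 in knockouts: Adam17, the protease that sheds the IL-6 receptor from the cell surface, rose by 0.97 ± 0.20 (adjusted p = 0.00699).

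**Figure D2:**
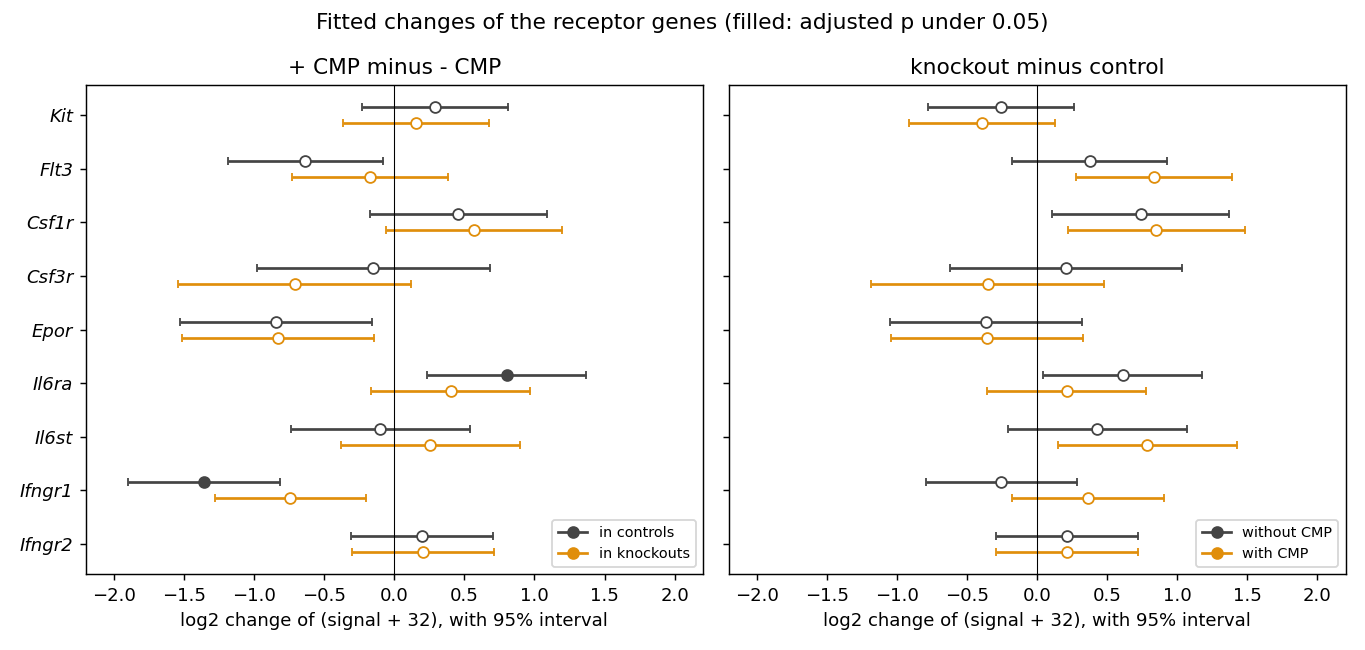
Fitted log2 changes of the 9 receptor genes with 95% intervals (limma, n = 3 arrays per group), for CMP within each genotype on the left and knockout minus control on the right. The only filled points, Ifngr1 at -1.36 and Il6ra at 0.80 with CMP in controls, are the called ones.

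Epor, the erythropoietin receptor, which red cell precursors need to survive, had signals of 553, 596 and 433 in controls without CMP and 445, 218 and 217 in controls with CMP. Knockouts had 380, 432 and 385 without CMP and 345, 110 and 231 with CMP. All knockouts with CMP lay below all knockouts without CMP, whereas in controls the set A array with CMP lay above the set C array without it. The difference with CMP was -0.84 ± 0.31 in controls (1.79-fold lower, adjusted p = 0.0748) and -0.83 ± 0.31 in knockouts (1.78-fold lower, adjusted p = 0.0843, limma), and it was negative in 3 of 3 sets in both genotypes. The set values were -0.29, -1.33 and -0.90 in controls and -0.13, -1.70 and -0.67 in knockouts, so set A differed least. The interaction was 0.01 ± 0.44, with a 95% interval from -0.96 to 0.98.

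Knockouts without CMP also lay below controls without CMP on every array. That difference was -0.37 ± 0.31, and with CMP it was -0.36 ± 0.31 (adjusted p = 0.631). Epor passed the threshold with CMP in controls in 5 of 26 other settings, among them centring of the arrays on their medians (-1.04, adjusted p = 0.0235) quantile normalization (-0.99, adjusted p = 0.0366) and leaving out the set B knockout with CMP (-0.84, adjusted p = 0.0206).

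The Epor promoter is shown because it holds both of these motifs close to the start (GRCm38.p6, chr9:21963577-21963826, minus strand, RefSeq, 250 bases). Capitals mark GATAA on the reverse strand (TTATC) at 54 bases before the start and GGGCGG on the reverse strand (CCGCCC) at 26.
Epor: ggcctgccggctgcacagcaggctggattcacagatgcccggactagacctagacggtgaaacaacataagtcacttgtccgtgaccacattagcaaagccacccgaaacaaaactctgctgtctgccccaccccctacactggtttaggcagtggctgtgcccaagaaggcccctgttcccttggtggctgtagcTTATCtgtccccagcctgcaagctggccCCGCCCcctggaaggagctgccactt

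Red cell markers were set beside Epor. Of 9 tested, 5 fell with CMP in controls and none rose, and in knockouts 7 fell and 1 rose. Among all genes 11.6% fell and 10.6% rose in controls, and 9.72% fell and 9.03% rose in knockouts. The summed signal of the 12 markers on the array was 20700 to 60732 in controls without CMP and 14718 to 24079 in controls with CMP, and 19204 to 36167 and 6983 to 17835 in knockouts. Their part in the difference of Epor was not tested. Of 17 blood cell transcription factors tested, none rose and 1 fell in controls, and 1 rose and 2 fell in knockouts. Klf1, a factor of red cell genes, fell by 2.02 ± 0.51 in controls (adjusted p = 0.0159) and 2.43 ± 0.51 in knockouts (adjusted p = 0.00842). Gata1, the red cell and megakaryocyte GATA factor, fell by 1.51 ± 0.38 in knockouts (adjusted p = 0.018), and Mitf, a factor of mast cells, rose there by 1.65 ± 0.34 (adjusted p = 0.00774). In controls, where neither was called, Gata1 had 2630 to 4261 without CMP and 1573 to 1676 with CMP. Mitf there had 272 to 321 and 359 to 1179. Of 6 mast cell and basophil markers tested, none rose with CMP in either genotype, 1 fell in controls and 2 fell in knockouts.

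Csf1r, the receptor for macrophage colony-stimulating factor and IL-34, had signals of 3997, 5361 and 7505 in controls without CMP and 5177, 8609 and 9377 in controls with CMP. Knockouts had 7067, 13628 and 7829 without CMP and 10427, 25919 and 9142 with CMP. Within sets A and B the knockout was the brighter array under both conditions, while in set C genotypes lay close together. Knockouts minus controls gave 0.74 ± 0.29 without CMP, with 0.82, 1.34 and 0.06 in the sets, and 0.85 ± 0.29 with CMP, with 1.01, 1.59 and -0.04. Csf1r was called in neither (with CMP adjusted p = 0.507, limma). With CMP the differences were 0.46 ± 0.29 in controls (adjusted p = 0.282) and 0.57 ± 0.29 in knockouts (adjusted p = 0.188), positive in 3 of 3 sets in both genotypes. Without the set C knockout with CMP the second was 0.95 and passed (adjusted p = 0.0365). When the beta-actin ratio was a covariate, those 2 CMP differences were -0.06 and 0.01, and the genotype differences stayed at 0.75 and 0.82.

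The other 2 Csf1r probe sets read the same RNA and are not independent. One had signals of 1353, 1582 and 2301 in controls without CMP and 2692, 4887 and 2418 in knockouts without CMP, and 1516, 2661 and 3369 against 4233, 9344 and 4336 with CMP. In both conditions every knockout array lay above every control array. The share of all probe sets with groups that do not overlap was not counted. Among all genes, by their brightest probe set, it was 4.32% without CMP and 5.66% with CMP. The genotype differences of this second Csf1r probe set were 0.88 ± 0.30 and 1.21 ± 0.30 without and with CMP. Neither was called over probe sets (with CMP adjusted p = 0.542, limma). The third gave 0.62 ± 0.26 and 0.72 ± 0.26, and its genotypes overlapped in both conditions. Its signals without CMP were 376, 364 and 932 in controls and 899, 674 and 829 in knockouts. With CMP they were 576, 471 and 1070.5 in controls and 1218, 894 and 1276 in knockouts.

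**Figure D3:**
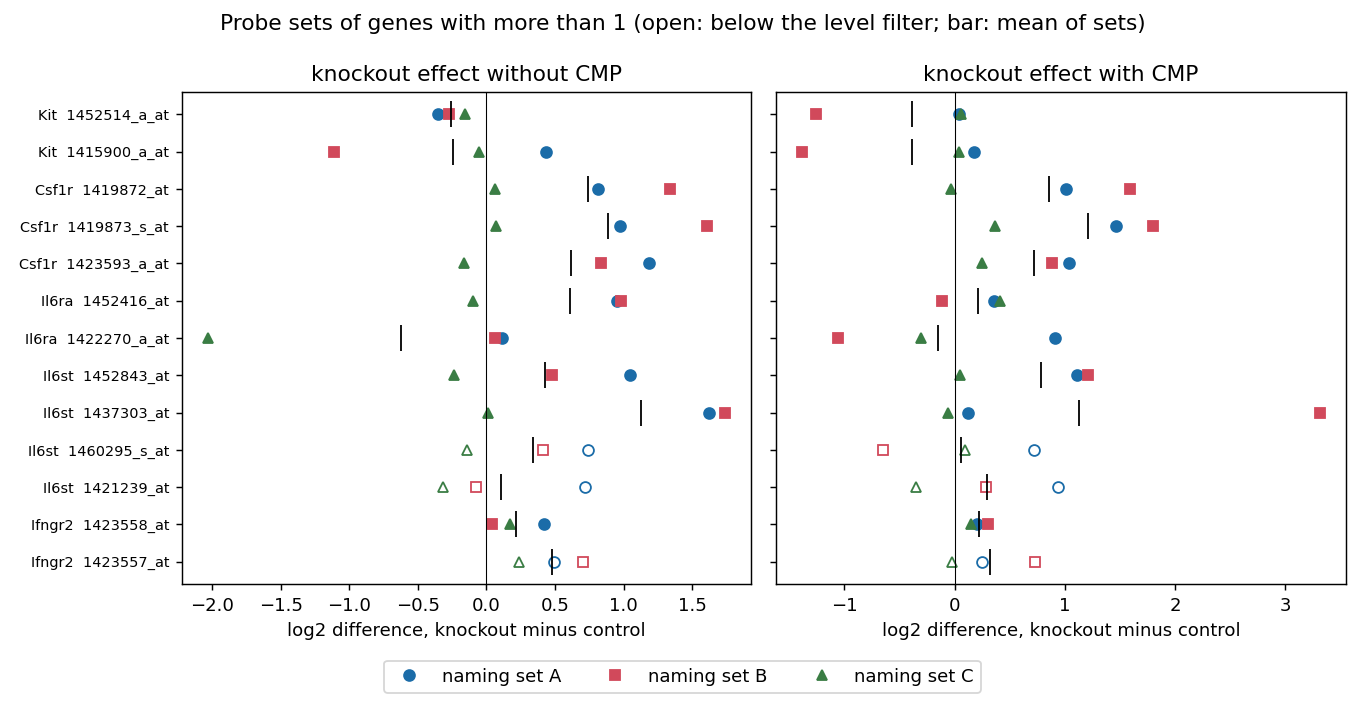
Knockout minus control log2 difference within each naming set for every probe set of the receptor genes that have more than 1, without CMP and with CMP. Open symbols lie below the level filter and bars are the means of the 3 sets; in all 3 Csf1r probe sets sets A and B lie above set C.

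Monocyte and macrophage markers were set beside Csf1r. Of 6 tested, 1 rose with CMP in each genotype, Cd14, by 2.03 ± 0.39 in controls (adjusted p = 0.00395) and 1.85 ± 0.39 in knockouts (adjusted p = 0.00779), and none was called between genotypes. Their median knockout minus control difference was 0.53 without CMP (all genes -0.01), where 2 of 6 had an unadjusted p under 0.05, and 0.25 with CMP (all genes -0.04), where 1 of 6 did. The summed signal of the 11 markers on the array was 3317 to 8767 in controls and 5289 to 9680 in knockouts without CMP, and 4030 to 8007 and 5588 to 8167 with CMP. Lyz2, the lysozyme gene, had signals of 1231 to 7156 over the arrays, the chemokine receptor gene Ccr2 339 to 2309, and the complement gene C1qa, of macrophages, 2.63 to 7.69. Cx3cr1, the fractalkine receptor gene, had 298 to 1363 in controls and 1338 to 2423 in knockouts with CMP, and 319 to 824 and 642 to 899 without it. Adgre1 and Mrc1, of the same list, went the opposite way with CMP. Adgre1 had 225 to 478 in controls and 203 to 257 in knockouts, and Mrc1, at low signals, 59.1 to 98.5 and 33.3 to 46.9. The part of such cells in the Csf1r difference was not tested. The Csf1r ligand gene Csf1 was the 1 called of 5 tested ligands with CMP in controls, where it rose by 2.14 ± 0.51 (adjusted p = 0.0119). In knockouts, where it was not called, Csf1 had signals of 104 to 152 without CMP and 337 to 460 with CMP. In knockouts 2 other ligands were called: Clcf1, an IL-6 family cytokine, rose by 1.24 ± 0.39 (adjusted p = 0.0458), and Ctf1, cardiotrophin, fell by 1.07 ± 0.30 (adjusted p = 0.0281). In controls, where they were not called, Clcf1 had 30.7 to 132 without CMP and 83.5 to 309 with CMP, and Ctf1 349 to 504 and 191 to 327.

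Flt3, the receptor of early lymphoid, myeloid and dendritic progenitors, had signals of 1846, 1490 and 2520 in controls without CMP and 1648, 977 and 1119 in controls with CMP. Knockouts had 2509, 2522 and 2417 without CMP and 2570, 2590 and 1591 with CMP. Knockouts without CMP lay within 2417 to 2522, while the other groups spread more widely. With CMP, 2 of 3 knockout arrays lay above every control array and the set C knockout lay below the set A control. Knockouts with CMP exceeded controls with CMP by 0.83 ± 0.25, or 1.78-fold, with 0.63, 1.38 and 0.50 in the sets (adjusted p = 0.507, limma). It had the smallest unadjusted p of the 9 genes in that comparison and was not a call. Without CMP the difference was 0.37 ± 0.25, with 0.44, 0.75 and -0.06 in the sets.

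With CMP, Flt3 differed by -0.63 ± 0.25 in controls (adjusted p = 0.0954), negative in 3 of 3 sets at -0.16, -0.59 and -1.15, and by -0.17 ± 0.25 in knockouts (adjusted p = 0.668). The interaction was 0.46 ± 0.36 (adjusted p = 0.954), with a 95% interval of -0.33 to 1.25. Flt3 passed the threshold in controls in 4 of 26 other settings, among them arrays centred on their medians (-0.83, adjusted p = 0.0459) the beta-actin ratio as a covariate (-1.26, adjusted p = 0.014) and leaving out the set B knockout with CMP (-0.63, adjusted p = 0.046).

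Kit, the stem cell factor receptor, had signals of 6762, 1647 and 4289 in controls without CMP and 6867, 2331 and 5475 in controls with CMP. Knockouts had 5299, 1356 and 3849 without CMP and 7035, 953 and 5686 with CMP. The naming set separated these arrays more than the group did, since set B was the lowest in all 4 groups. CMP differences were 0.29 ± 0.24 in controls and 0.16 ± 0.24 in knockouts (adjusted p = 0.414 and 0.68). In knockouts they were 0.41, -0.49 and 0.56 in the sets, and without set B the value was 0.48 and passed the threshold (adjusted p = 0.0238), as it did at 0.52 without the set B knockout with CMP alone (adjusted p = 0.0386). Knockouts with CMP differed from controls with CMP by -0.39 ± 0.24 (adjusted p = 0.522), which rested on set B at -1.26, with 0.03 and 0.05 in sets A and C. Without CMP it was -0.26 ± 0.24, with -0.35, -0.27 and -0.15 in the sets.

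The dimmer Kit probe set, at 90.1 to 308, had its 2 lowest values in the set B knockouts. Without CMP it had 219, 231 and 238 in controls and 308, 90.1 and 229 in knockouts, a difference of -0.24 ± 0.34. Stem and progenitor markers were set beside Kit and Flt3: of 8 tested, 1 rose and 3 fell with CMP in controls and 1 rose and 2 fell in knockouts. Cd34, a marker of progenitors, was among those that fell, by 1.07 ± 0.22 and 1.04 ± 0.22. Those that rose were Hlf in controls, by 1.47 ± 0.40 (adjusted p = 0.0228, limma), and Procr in knockouts, by 1.62 ± 0.47 (adjusted p = 0.0323). Among all genes 10.6% rose and 11.6% fell with CMP in controls, and 9.03% rose and 9.72% fell in knockouts.

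Csf3r, the receptor of granulocyte colony-stimulating factor on neutrophils and their precursors, had signals of 1195, 356 and 1116 in controls without CMP and 1070, 678 and 478 in controls with CMP. Knockouts had 1366, 595 and 925 without CMP and 1460, 188 and 553 with CMP. Set A stayed within 1070 to 1460 in all 4 groups, and sets B and C varied. With CMP the sets of the controls went different ways, at -0.15, 0.87 and -1.17, and the mean was -0.15 ± 0.38 (adjusted p = 0.813). In knockouts it was -0.71 ± 0.38 (adjusted p = 0.212), with 0.09, -1.51 and -0.71. Knockouts minus controls gave 0.21 ± 0.38 without CMP and -0.35 ± 0.38 with CMP (adjusted p = 0.695), and the second was 0.32 without set B. The interaction of -0.56 ± 0.54 (adjusted p = 0.954) had the widest 95% interval of the 9 genes, from -1.73 to 0.62. Of 10 neutrophil markers tested, none was called in controls with CMP and 1 fell in knockouts, where 6 of 10 had an unadjusted p under 0.05. Their median difference with CMP was -0.33 in controls (all genes -0.02) and -1.12 in knockouts (all genes -0.06), and that of knockouts minus controls was -0.15 without CMP and -0.81 with CMP. Their summed signal with CMP was 9994 to 162037 in controls and 10812 to 34978 in knockouts, against 17464 to 147880 and 16689 to 95251 without it. Their part in the values of Csf3r was not tested.

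**Figure D4:**
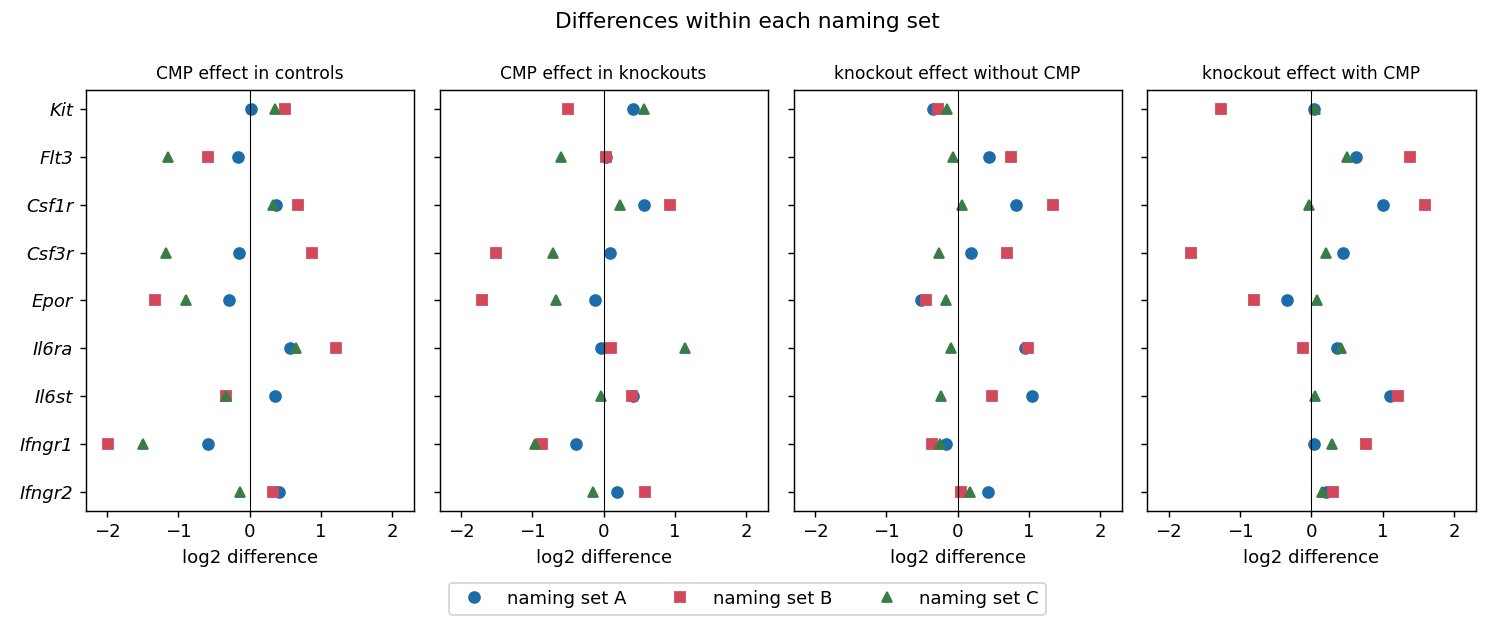
Log2 differences of each receptor gene within naming sets A, B and C for the 4 comparisons of groups, on 1 common axis. Ifngr1 and Epor lie left of 0 in every set of both CMP comparisons, and Kit and Csf3r with CMP show set B far to the left of sets A and C when knockouts are compared with controls.

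Jak2, which binds Epor and the Ifngr2 chain, rose with CMP by 0.66 ± 0.16 in controls (adjusted p = 0.0128) and 0.61 ± 0.16 in knockouts (adjusted p = 0.021), and of the 4 JAK genes Jak3, which serves lymphoid cytokine receptors, fell in knockouts by 0.85 ± 0.26 (adjusted p = 0.0434). Of 28 genes of signalling next to the receptors, 5 rose and 1 fell in controls and 7 rose and 2 fell in knockouts. Among all genes 22.1% were called in controls (10.6% higher and 11.6% lower) and 18.8% in knockouts (9.03% higher and 9.72% lower). The called share of this list in controls was near that of all genes. In controls and knockouts, Sh2b3, an adaptor that restrains Kit and Jak2 signalling, rose by 1.82 ± 0.21 and 1.84 ± 0.21. Fyn, a Src family kinase, rose by 1.78 ± 0.23 and 1.19 ± 0.23, and Gab1, a docking protein, by 1.08 ± 0.21 and 1.34 ± 0.21, called in both genotypes. Plcg1, a phospholipase that receptor tyrosine kinases activate, fell by 1.01 ± 0.26 and 1.23 ± 0.26, and the adaptor Sh2b2 by 0.93 ± 0.28 in knockouts. In controls, where it was not called, Sh2b2 had 259 to 419 without CMP and 167 to 257 with CMP.

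Of 36 other cytokine and growth factor receptors tested, 7 rose and 1 fell with CMP in controls and 9 rose and 1 fell in knockouts. The list medians were 0.42 and 0.23 (all genes -0.02 and -0.06). Among all genes 22.1% were called in controls (10.6% higher and 11.6% lower) and 18.8% in knockouts (9.03% higher and 9.72% lower). The called share of this list in controls was near that of all genes. Csf2rb2 and Csf2rb, the beta chains of the IL-3, IL-5 and GM-CSF receptors, rose by 4.26 ± 0.33 and 2.81 ± 0.27 in controls and by 3.74 ± 0.33 and 2.36 ± 0.27 in knockouts. Tgfbr3, a co-receptor of TGF-beta, fell by 3.35 ± 0.60 and 3.62 ± 0.60. Each of these changes was larger than any among the 9 receptor genes, whose fitted CMP differences ran from -1.36 to 0.80. No member of these lists was called between genotypes or in the interaction. A pathway or marker gene given above as changed in 1 genotype only missed the threshold in the other. Such a pattern shows neither a difference between genotypes nor the absence of one.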

How the data were processed

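The authors deposited 1 table of linear intensity signals per probe set, made with MAS5 per the submitters' processing notes, which give no version. Probe sets were named from the platform's gene table: 34958 had 1 symbol, 932 several and 9211 were not listed, and 34754 pairings matched RefSeq genes of GRCm38.p6 by gene number. Signals were taken as log2(signal + 32). Each gene kept its brightest probe set with 1 symbol, and a gene was tested if its mean reached 6.76, the median over probe sets.

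One limma fit (version 3.58.1, R 4.3.3, eBayes with trend) over 12 arrays held the 4 groups with the naming set as block (6 residual and 5.78 prior degrees of freedom). The set was kept because deviations from group means correlated at 0.41 to 0.77 in 18 pairs of arrays of 1 set and at -0.64 to 0.28 in 36 pairs of different sets. Tests were two-sided, errors of differences are standard errors, and the p-values of 5 comparisons were adjusted over 10583 genes each. Comparisons share arrays. Named were the 9 receptor genes, of each pathway list the called genes with the 2 smallest p in each direction, and 3 genes most like each called receptor. Adam17, Csf1 and other genes are named by that rule. Cd14, Cd34, Hlf, Procr, Mpo, Cd79b, Lyz2, Ccr2, C1qa, Cx3cr1, Adgre1 and Mrc1, all from the marker lists, were chosen after their values were seen. So were the GATAA and GGGCGG motifs. The members and lists were chosen with earlier results of these data known. Tested on simulated data of 10583 genes, the fit called 90 of 100 genes changed 4-fold and 46 of 100 changed 2-fold with CMP in controls, and 9.33% of its calls there were false, above the 5% set by the threshold. For the interaction it called 66 of 100 and 17 of 100. In each simulation only 100 genes were changed 4-fold and 100 were changed 2-fold. In the data 22.1% of genes were called with CMP in controls, so the simulated rates need not hold for that comparison. Alternatives covered the pseudocount, filter, scaling, block, probe sets, prior, grouping and arrays left out, and, added after the data were seen, the beta-actin ratio as a covariate.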

Additional observations from a re-analysis of the deposited data

Results flagged for a closer look

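Ifngr1 was lower in knockouts than in controls in 3 of 3 naming sets without CMP (-0.16, -0.36 and -0.25 on the log2 scale) and higher in 3 of 3 sets with CMP (0.04, 0.76 and 0.29), so every set of one condition went against every set of the other. The difference between both effects was 0.62 ± 0.35 and did not pass the test of the interaction in limma (adjusted p = 0.954). The share of all genes with such a reversal was not counted. Between genotypes, 31.2% of all genes had the same direction in all 3 sets without CMP and 34.9% with CMP.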

How the results depend on the processing

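The 2 calls with CMP in controls became 1 with no level filter, with the mean of all probe sets or without set A or B, 0 with no replicate block or without set C, and 3 with median centring, quantile normalization, only the groups compared, the set B array as a control or the beta-actin ratio. Over arrays left out in turn they were 1 to 4, the highest without the set B knockout with CMP. In knockouts the count of 0 became 1 without set B and was 0 to 1 over arrays left out. In the other comparisons it was 0 in all settings. Ifngr1 kept its call in controls in 24 of 26 settings, and Il6ra in 11. Of 45 results (9 genes in 5 comparisons) 28 never changed sign. The changed signs, all of values not called and with the cause not tested, follow. With pseudocount 1, the interaction was -0.027 for Epor and -0.011 for Ifngr2. Median centring gave 0.0014 for Kit's interaction. The mean of all probe sets gave 0.067 for Il6st with CMP in controls, -0.0035 for Il6ra in knockouts without CMP, and interactions of 0.035 for Il6ra and -0.080 for Ifngr2. The set B array as a control gave -0.15 for Ifngr2's interaction. Without set A, Epor's interaction was -0.071. Without set B, Il6st with CMP in controls was 0.014, Csf3r in knockouts -0.037 without and 0.32 with CMP, Kit in knockouts with CMP 0.044, and the interactions 0.30 for Kit, 0.35 for Csf3r and -0.12 for Ifngr2. Without set C, CMP gave 0.36 for Csf3r and 0.016 for Il6st in controls and -0.044 for Kit and 0.036 for Flt3 in knockouts, and Epor's interaction was -0.10. The beta-actin covariate gave -0.060 for Csf1r in controls, -0.15 for Il6st in knockouts and -0.0095 for Ifngr2's interaction. Leaving out single arrays gave -0.63 to 0.20 for Csf3r and -0.41 to 0.21 for Il6st with CMP in controls, -0.069 to 0.52 for Kit and -0.40 to 0.10 for Flt3 with CMP in knockouts, and -0.75 to 0.13 for Csf3r and -0.57 to 0.019 for Epor between genotypes with CMP. Interactions were then -0.36 to 0.23 for Kit, -0.23 to 0.49 for Csf1r, -0.25 to 0.39 for Epor and -0.14 to 0.14 for Ifngr2. Median centring moved the median of all genes with CMP in controls from -0.02 to -0.22. Arrays limit precision: 3 per group, with set B of high beta-actin ratio.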
